A study of Mus musculus with 899 samples.

Results

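The samples described here were plasma of C3H mice (C3Hf/Sed/Kam, a gnotobiotic colony, young adults of both sexes) that were sham irradiated, and the question was how their circulating miRNA changed with time from each mouse's own pre-treatment sample. The members were chosen by their labels: strain C3H, not irradiated. They were 144 of the 899 samples of the series, from 32 of 196 mice, and their labels name no transgene or drug. The time points were before treatment (PT, 32 samples), day 2 (D2, 16), day 5 (D5, 16), month 1 (M1, 32), month 2 (M2, 16), month 3 (M3, 16) and month 4 (M4, 16), with equal numbers of females and males at each. The paper placed the bleed before treatment 2 weeks ahead of irradiation, so that the changes from PT to D2 and D5 span more than 2 and 5 days. It gives an older age range before irradiation for the females than for the males. The sample titles carry a code, G2 or G4, whose meaning the labels do not give. There were 16 mice of each code at PT and at M1 and 8 of each at D2 and at D5, while M2, M3 and M4 came from the G2 mice alone. The mice bled at D2 and those bled at D5 were different animals. All mice were bled repeatedly from the eye under isoflurane, terminal blood came from the heart, and the sources used here do not say what the sham handling was. The paper describes anesthesia with ketamine and xylazine before irradiation, and the sources do not say whether the sham mice received it. Whether the M4 samples were terminal is not stated there either. In this design age, repeated bleeding, any change of bleeding site, handling and any sequencing batch rise or change together with time. The labels name no batch, and these effects cannot be told apart.

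miRNA are short regulatory RNA that bind target mRNA mainly through the seed, bases 2 to 8 from the 5′ end, and lower the output of those mRNA. In plasma they are carried by vesicles, by proteins and by lipoproteins, and they come from blood cells and platelets as well as from solid tissue. Red blood cells are rich in miR-451a, miR-144 and miR-16, lymphocytes in miR-150 and the miR-181 family, endothelium in miR-126, and epithelia in the miR-200 family. A change of a plasma miRNA relative to the other miRNA of the sample can therefore reflect the amount released by a tissue or the share of another source, and fewer releasing cells cannot be told apart from less miRNA per cell.

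The mature sequences below, from RefSeq on the mouse build GRCm38.p6, are those the results turn on, with the seed in capitals. The first set is shown because its members changed in both sets of mice, the first 5 upwards and the last 2 downwards. The miR-34 family members are induced by p53, miR-199a and miR-214 are mesenchymal miRNA processed from the transcript Dnm3os, miR-29a represses collagen mRNA, and miR-144 is erythroid. miR-199a-3p and miR-199b-3p are identical, so their reads cannot be told apart.
miR-34a-5p: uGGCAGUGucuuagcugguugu
miR-34b-3p: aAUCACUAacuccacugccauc
miR-199a-3p: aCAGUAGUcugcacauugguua
miR-214-3p: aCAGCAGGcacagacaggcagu
miR-29a-3p: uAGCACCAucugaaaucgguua
miR-296-5p: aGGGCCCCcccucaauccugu
miR-144-3p: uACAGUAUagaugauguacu
miR-34a-5p lies between genes at chr4:150068473-150068494 and miR-34b-3p in an intron of Btg4, on the opposite strand, at chr9:51103574-51103595. miR-214-3p is in an exon of Dnm3os at chr1:162223438-162223459, miR-296-5p between genes at chr2:174267093-174267113, and miR-144-3p between genes at chr11:78073047-78073066.

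The next set is shown because between months 1 and 4 the 4 miR-181 sequences were called lower, and 4 members of the miR-200 family were called higher in the fit of all samples, 2 of them (miR-200a-3p and miR-429-3p) also within mice. Within the miR-200 family, miR-200a-3p and miR-141-3p share the seed AACACUG and miR-200b-3p and miR-429-3p share AAUACUG. The 4 miR-181 sequences share the seed ACAUUCA and differ outside it. miR-224-5p (an intron of Gabre, chrX:72261085-72261105) rose late, while miR-136-5p and miR-434-3p (opposite the coding exon of Rtl1 in the imprinted Dlk1-Dio3 region, chr12:109595331-109595352 and chr12:109594565-109594586) fell late.
miR-200a-3p: uAACACUGucugguaacgaugu
miR-141-3p: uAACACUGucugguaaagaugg
miR-200b-3p: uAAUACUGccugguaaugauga
miR-429-3p: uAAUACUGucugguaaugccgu
miR-181a-5p: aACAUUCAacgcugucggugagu
miR-181b-5p: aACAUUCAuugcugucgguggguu
miR-181c-5p: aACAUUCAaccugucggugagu
miR-181d-5p: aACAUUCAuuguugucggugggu
miR-224-5p: uAAGUCACuagugguuccguu
miR-136-5p: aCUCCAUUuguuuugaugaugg
miR-434-3p: uUUGAACCaucacucgacuccu

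The samples held 700206 to 11814515 miRNA reads each (median 1842944), and 349 of the 1915 miRNA listed were abundant enough to be tested. miR-16-5p, a red cell miRNA, was the most abundant miRNA in all 144 samples, with a mean of 44.8% ± 8.29 (SD) of the reads. The PT samples of the G2 mice stood apart before any comparison was made. In a principal component analysis of 135 miRNA, those 16 samples lay between -8.87 and -3.13 on the first component, and 13 of the other 128 samples fell within that range. In a direct comparison of the codes, 157 of 265 miRNA (59.2%) differed between G4 and G2 mice at PT, 41 of 282 (14.5%) at D2, 13 of 277 (4.69%) at D5 and 80 of 270 (29.6%) at M1. The PT samples of the irradiated C3H mice, bled at the same stage, split by code too, with 171 of 251 miRNA (68.1%) called between 32 samples of each code. Of the 248 miRNA tested in both treatments 136 were called in the same direction in both and 0 in opposite directions, which is 90.1% of the 151 called in sham mice and 80% of the 170 called in irradiated mice. The red cell list (9 miRNA genes) had a median summed level of 19.94 log2 CPM (CPM, the count of a miRNA scaled to a common library size) in the PT samples of the G2 mice, with a range of 18.34 to 20.53. The PT samples of the G4 mice had a median of 19.25 and the medians at the later times were 18.57 to 19.28. Single members of the list differed in direction. The PT median of miR-451a was 14.32 in the G2 mice and 12.75 in the G4 mice, and that of miR-144-3p was 8.78 and 9.77. The part of red cell content or of a batch in the split was not tested. The main results are therefore given for the G2 and the G4 mice or with and without the 16 PT samples of the G2 mice.

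**Figure D1:**
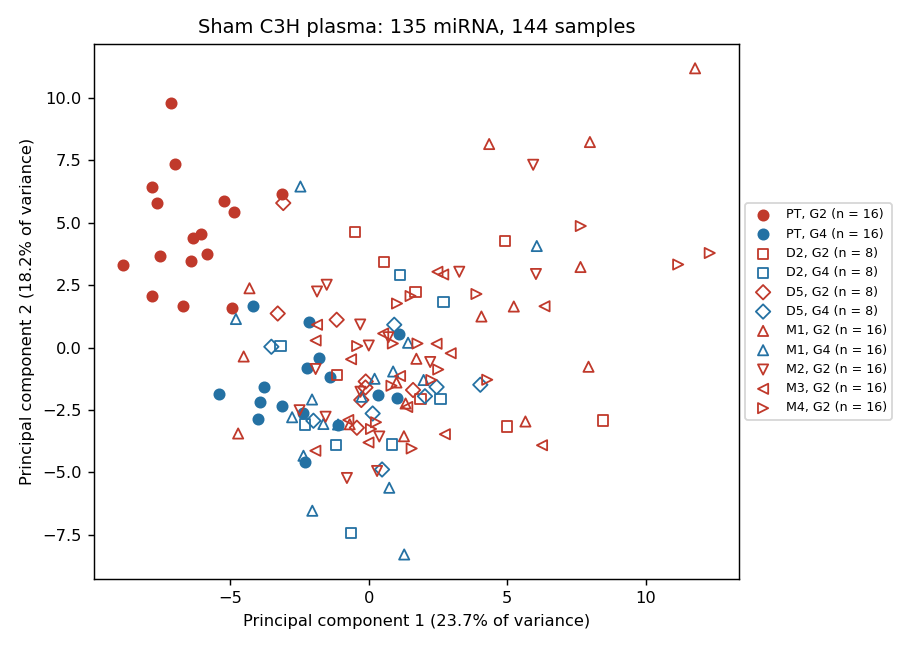
Principal components of log2 CPM of 135 miRNA in the 144 sham C3H samples, with component 1 (23.7% of the variance) on the x axis and component 2 (18.2%) on the y axis; color gives the title code, marker the time point, and filled markers the PT samples. The filled markers of the G2 mice occupy the left of the plot, from -8.87 to -3.13 on component 1, and those of the G4 mice run from -5.42 to 1.1.

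Plasma miRNA differed from PT at every later time in the sham mice. With the mouse as a block, 129 of 349 miRNA (37%) were called at D2 (63 higher, 66 lower), 91 (26.1%) at D5 (38 and 53), 149 (42.7%) at M1 (74 and 75), 130 (37.2%) at M2 (58 and 72), 151 (43.3%) at M3 (71 and 80) and 196 (56.2%) at M4 (96 and 100), by edgeR's quasi-likelihood test at an adjusted p of 0.05. As shares of the 349, the miRNA called higher were 18.1%, 10.9%, 21.2%, 16.6%, 20.3% and 27.5% from D2 to M4, and those called lower were 18.9%, 15.2%, 21.5%, 20.6%, 22.9% and 28.7%. A joint test over the 6 later times called 236 miRNA (67.6%). These counts depended on the PT samples of the G2 mice. In the G4 mice alone, 10 miRNA (2.99%) were called at D2, 8 (2.39%) at D5 and 43 of 335 (12.8%) at M1, whereas the G2 mice alone gave 146 of 361 (40.4%), 135 (37.4%) and 211 (58.4%) at the same times, and 174 (48.2%), 181 (50.1%) and 221 (61.2%) at M2, M3 and M4. With the 16 PT samples of the G2 mice left out of the fit, the counts from D2 to M4 were 31 (9.01%), 3 (0.872%), 55 (16%), 20 (5.81%), 55 (16%) and 65 (18.9%) of 344 miRNA. Of these 344, the shares called higher were 6.1%, 0.291%, 8.72%, 1.74%, 8.43% and 10.2%, and the shares called lower 2.91%, 0.581%, 7.27%, 4.07%, 7.56% and 8.72%. In that fit the values at months 2 to 4 join the changes of the G2 mice after D2, D5 and M1 to the changes from PT to those times in the G4 mice. The change from PT differed between the codes for 119 of 332 miRNA (35.8%) over D2, D5 and M1.

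**Figure D2:**
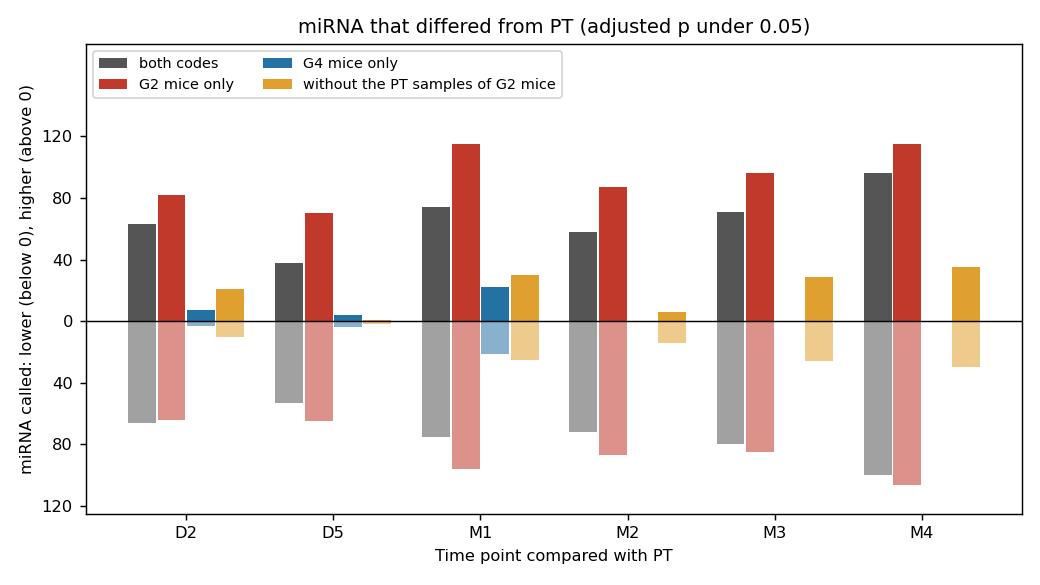
Number of miRNA called higher (above 0) or lower (below 0) than PT at each time point on the x axis, in all sham C3H mice, in the G2 mice alone, in the G4 mice alone (D2, D5 and M1) and without the PT samples of the G2 mice. At M1 the G2 mice alone gave 211 calls and the G4 mice alone 43.

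Day 2 and day 5 could be compared with each other only between mice. No miRNA was called between D5 and D2 by edgeR, where 20 of 349 had an unadjusted p under 0.05, and none by DESeq2 (35 unadjusted) or limma-voom (20 unadjusted).

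Of the 4 miR-34 family miRNA tested, miR-34a-5p, miR-34b-3p and miR-34c-5p rose at M1 in both codes, and miR-34c-3p was called at M1 in the G2 mice only. These miRNA are transcribed from a pair of loci under p53 and repress cell cycle genes, and miR-34b and miR-34c are abundant in ciliated airway epithelium and in testis. The level of miR-34a-5p in the G2 mice ranged from 4.72 to 6.09 log2 CPM at PT (median 5.63) and from 6.1 to 8.92 at M1 (median 7.4). In the G4 mice it ranged from 6.65 to 7.89 at PT (median 7.06) and from 7.31 to 9.28 at M1 (median 7.78). The G2 ranges did not overlap and the G4 ranges did, and the level was higher than in the same mouse's PT sample in 16 of 16 mice of each code. The fitted change from PT to M1 was a log2 fold of 2.07 ± 0.2 (SE, adjusted p = 5.96e-15) in the G2 mice and 0.86 ± 0.17 (adjusted p = 0.000779) in the G4 mice. At D2 it was 2.15 ± 0.23 and 0.97 ± 0.23 (adjusted p = 0.0132), and at D5 1.47 ± 0.24 and 0.38 ± 0.23, the latter not called (adjusted p = 0.384). The later levels of the G2 mice had medians of 7.59 at M2, 7.89 at M3 and 7.77 at M4, all above the highest PT sample of these mice and within the range of the G4 PT samples. Without the PT samples of the G2 mice the changes at M2, M3 and M4 were 0.85 ± 0.23, 1.29 ± 0.24 and 1.11 ± 0.23, each called.

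miR-34c-5p was called in both codes at D2, D5 and M1. Its PT level was 1.43 to 4.58 log2 CPM in the G2 mice (median 3.66) and 2.66 to 4.75 in the G4 mice (median 4.01), and its D2 level was 4.74 to 6.52 (median 5.76) and 4.12 to 5.94 (median 5.36). The D2 samples of the G2 mice were all above their PT range, while those of the G4 mice overlapped it. The log2 fold in the G4 mice was 1.44 ± 0.3 at D2, 1.29 ± 0.31 at D5 and 1 ± 0.24 at M1. miR-34b-3p rose at M1 by a log2 fold of 1.41 ± 0.28 in the G2 mice and 1.32 ± 0.32 in the G4 mice (adjusted p = 0.0034), a change of nearly the same size in both, from PT medians of 2.95 and 2.77. It was not called at M4 (0.02 ± 0.24, and 0 without the PT samples of the G2 mice), where its median was 3.3. miR-34c-3p, the other arm of the miR-34c precursor, had a PT median of 3.68 log2 CPM in both codes. It rose at M1 by a log2 fold of 1.26 ± 0.26 in the G2 mice and had a value of 0.34 ± 0.2 in the G4 mice (adjusted p = 0.277), and at D2 it was higher in 4 and lower in 4 of the 8 G4 mice.

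**Figure D3:**
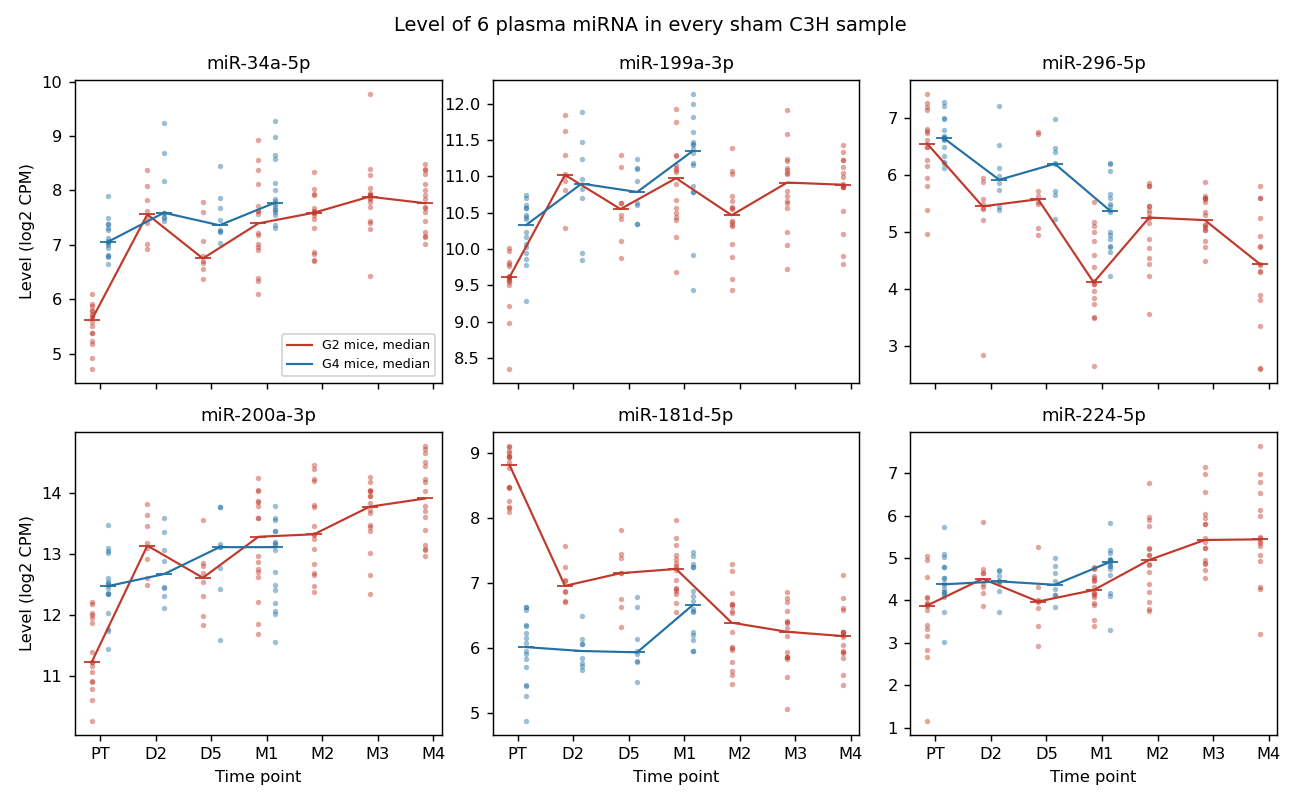
Level (log2 CPM) of miR-34a-5p, miR-199a-3p, miR-296-5p, miR-200a-3p, miR-181d-5p and miR-224-5p in each of the 144 samples by time point; points are samples, bars and lines the medians of the G2 and of the G4 mice, and the D2 and D5 points are different mice. The PT medians of miR-181d-5p were 8.81 in the G2 mice and 6.02 in the G4 mice, against 6.18 at M4 in the G2 mice.

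Over D2, D5 and M1, few miRNA passed the test in the same direction in both codes, which share no mice. Of the 332 miRNA tested in both, 8 did so at D2, which is 80% of the 10 called in the G4 mice and 5.71% of the 140 called in the G2 mice. At D5 there were 4 (50% of 8 and 3.15% of 127), and at M1 there were 20 (46.5% of 43 and 10.3% of 194). At D2 the 7 that rose were miR-214-3p, miR-34c-5p, miR-154-5p, miR-322-3p, miR-34a-5p, miR-221-3p and miR-29a-3p, and miR-676-3p fell. At D5 the shared calls were miR-34c-5p, miR-31-5p and miR-29a-3p, which rose, and miR-144-3p, which fell.

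Stromal miRNA were among those that rose. miR-214-3p, from Dnm3os, had medians of 4.59 log2 CPM at PT and 5.82 at D2 in the G2 mice and of 4.12 and 5.62 in the G4 mice, with ranges that overlapped in both (3.27 to 5.75 against 5.03 to 6.54, and 3.04 to 5.16 against 4.69 to 6.25). The log2 fold at D2 was 1.61 ± 0.35 and 1.52 ± 0.33 (adjusted p = 0.00694 in the G4 mice), so that the G2 and G4 estimates differed by less than their standard errors. It was not called at M2, M3 or M4. miR-199a-3p, from the same transcript and a second locus, ranged from 9.29 to 10.75 at PT (median 10.33) and from 9.44 to 12.14 at M1 (median 11.35) in the G4 mice, and was higher at M1 in 14 of 16 of them. Its log2 fold at M1 was 1.48 ± 0.16 in the G2 mice and 0.97 ± 0.2 in the G4 mice. miR-143-3p and miR-145a-5p, the smooth muscle members of the stromal list, moved the other way: miR-145a-5p fell at M1 by 1.4 ± 0.3 and by 1.17 ± 0.23 on the log2 scale in the G2 and G4 mice, and miR-143-3p fell by 1.14 ± 0.23 in the G4 mice and was not called in the G2 mice (-0.43 ± 0.22, adjusted p = 0.0864). Over the 15 stromal miRNA tested, 8 rose and 4 fell at M1, where 21.2% of all miRNA were called higher and 21.5% lower. Without the PT samples of the G2 mice 5 rose and 3 fell (8.72% and 7.27% of all). In the G4 mice alone 4 rose and 3 fell, where 12.8% of all miRNA were called in either direction. At M4 the counts were 3 and 4 in the fit of all samples, and 2 and 3 without the PT samples of the G2 mice.

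miR-29a-3p and miR-21a-5p rose as well. miR-29a-3p at D2 lay between 10.78 and 11.37 log2 CPM in the G4 mice against 9.79 to 10.89 at PT, with the lowest D2 sample inside the PT range, and was higher than at PT in all 8 mice of each code. Its log2 fold was 0.66 ± 0.14 and 0.62 ± 0.14 at D2 and 0.57 ± 0.14 and 0.81 ± 0.14 at D5 in the G2 and G4 mice. At M1 it was 1.5 ± 0.12 in the G2 mice but 0.15 ± 0.11 in the G4 mice, where it was not called (adjusted p = 0.35). miR-21a-5p, an abundant miRNA of fibroblasts and myeloid cells, was higher at M1 in 16 of 16 mice of each code, with log2 folds of 1.14 ± 0.12 and 0.65 ± 0.12 from PT medians of 14.93 and 15.14 log2 CPM.

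The miRNA that fell in both codes at M1 included miR-296-5p and miR-211-5p, the latter from an intron of the melanocyte gene Trpm1. miR-296-5p ranged from 4.96 to 7.42 log2 CPM at PT (median 6.54) and from 2.65 to 5.52 at M1 (median 4.12) in the G2 mice, and from 6.12 to 7.27 (median 6.64) and from 4.23 to 6.2 (median 5.36) in the G4 mice. The level was lower at M1 in 15 of 16 G2 mice and in 16 of 16 G4 mice, with ranges that overlapped only at their ends. It fell by 2.12 ± 0.23 and by 1.38 ± 0.19 on the log2 scale (adjusted p = 3.66e-13 and 3.25e-06), and at M4 the median of the G2 mice was 4.43. Without the PT samples of the G2 mice the change was -1.48 ± 0.19 at M1, -0.86 ± 0.26 at M2, -0.67 ± 0.25 at M3 (not called, adjusted p = 0.057) and -1.46 ± 0.26 at M4. miR-211-5p was a low miRNA, with PT medians of 5.81 and 3.77 log2 CPM and M1 medians of 1.5 and 2.04, and fell by 4.53 ± 0.52 in the G2 mice and by 1.43 ± 0.46 in the G4 mice (adjusted p = 0.0316). The erythroid miR-144-3p fell at D5 by 1.06 ± 0.28 and by 1.47 ± 0.26, from PT medians of 8.78 and 9.77 to D5 medians of 7.87 and 8.27. At M2 in the G2 mice it was called in the other direction (0.92 ± 0.21), a rise that was not called without their PT samples (0.26 ± 0.25, adjusted p = 0.602). miR-451a, also of the red cell list, was at D5 lower than at PT in 6 of 8 G2 mice and higher in 5 of 8 G4 mice. The other falls shared at M1 were miR-126a-3p, miR-328-3p, miR-574-3p, miR-145a-5p and miR-1247-5p, and the other shared rises were miR-106b-3p, miR-335-5p, miR-199b-3p, miR-501-3p, miR-378a-5p, miR-99a-5p, miR-146b-5p and miR-342-3p, with log2 folds of 0.51 to 1.07 in the G4 mice.

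At M1, 14 miRNA were called in opposite directions in the 2 codes. let-7b-5p, let-7c-5p, miR-155-5p, miR-181d-5p, miR-206-3p, miR-872-5p and miR-23b-3p fell in the G2 mice and rose in the G4 mice, and miR-130a-3p, miR-144-5p, miR-185-5p, miR-192-5p, miR-210-3p, miR-455-5p and miR-744-5p did the reverse. miR-155-5p, which marks activated leukocytes, lay between 6.45 and 7.76 log2 CPM at PT (median 6.96) and between 5.52 and 6.93 at M1 (median 6.04) in the G2 mice, but between 4.71 and 6.68 (median 5.79) and between 5.77 and 7.31 (median 6.59) in the G4 mice. It was lower at M1 in 16 of 16 G2 mice and higher in 15 of 16 G4 mice, with log2 folds of -0.92 ± 0.14 and 0.87 ± 0.15. The PT levels of the 2 codes overlapped little, whereas the M1 levels overlapped over most of their range.

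miR-140-5p and miR-17-5p were among the 10 miRNA with the smallest p over all times, and their change came with the G2 PT samples. miR-140-5p, a cartilage miRNA, was 9.8 to 11.65 log2 CPM in the PT samples of the G2 mice and 8.67 to 9.16 in those of the G4 mice, without overlap, and the medians of the G2 mice at the 6 later times were 8.22 to 8.75. Its log2 fold at M1 was -2.25 ± 0.14 in the G2 mice and -0.02 ± 0.12 in the G4 mice. miR-17-5p, of the proliferation-linked cluster from miR-17 to miR-92a, was -2.48 ± 0.19 and 0.05 ± 0.2. let-7b-5p, a differentiation miRNA, ranged from 13.66 to 15.18 in the G2 PT samples and from 12.15 to 12.96 in the G4 PT samples, again without overlap.

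**Figure D4:**
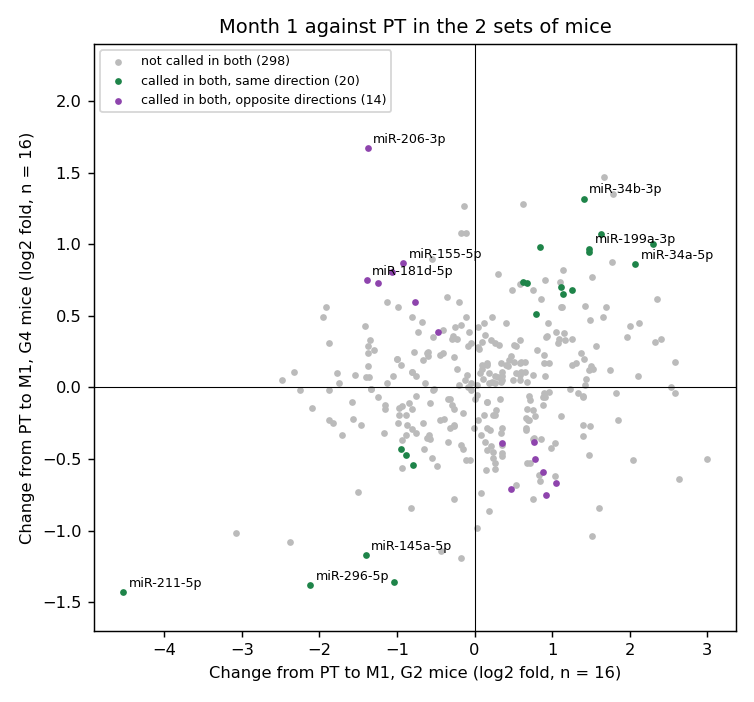
Change from PT to M1 (log2 fold) of each miRNA tested in both codes, in the 16 G2 mice on the x axis and in the 16 G4 mice on the y axis; green points were called in both codes in the same direction (20), purple points in opposite directions (14), and gray points were not called in both (298). The spread along the x axis is wider than along the y axis, with miR-211-5p at -4.53 and -1.43.

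Epithelial miRNA were called higher than PT more often than all miRNA in the fit of all samples, and these counts were much smaller without the PT samples of the G2 mice. The list held 19 tested members, and 11, 8, 12, 10, 15 and 14 of them rose from D2 to M4 with none called lower, above the shares of all miRNA called higher given earlier, with medians of 0.62, 0.62, 0.73, 0.76, 0.99 and 1.28 on the log2 scale against medians of -0.08 to 0.07 over all 349 miRNA. The counts of rises without the PT samples of the G2 mice were 2, 1, 5, 0, 5 and 8, with 1 fall, at M4, and medians of 0.26, 0.27, 0.45, 0.42, 0.6 and 0.84. In the G4 mice alone 1, 1 and 3 of the 19 rose at D2, D5 and M1, where 2.99%, 2.39% and 12.8% of all miRNA were called in either direction. The list includes miR-34b-3p, miR-34c-3p and miR-34c-5p, described earlier. The 1 rise in the G4 mice at D2 and at D5 was miR-34c-5p, and those at M1 included miR-34b-3p and miR-34c-5p. miR-200a-3p, which keeps epithelial cells in their state by repressing Zeb mRNA, ranged from 10.27 to 12.21 log2 CPM at PT (median 11.24) and from 12.96 to 14.77 at M4 (median 13.9) in the G2 mice, so the 2 did not overlap, and the G4 PT samples lay between (11.44 to 13.47, median 12.48). The change at M4 was a log2 fold of 2.56 ± 0.22 in the G2 mice alone and 1.26 ± 0.26 (adjusted p = 0.000196) without their PT samples, while at M1 the G4 mice alone gave 0.43 ± 0.22, not called (adjusted p = 0.222). miR-200b-3p at M4 was 1.54 ± 0.21 and 1.01 ± 0.25 and miR-429-3p was 1.88 ± 0.21 and 0.94 ± 0.23 in the same 2 fits. miR-141-3p was 2.64 ± 0.27 in the G2 mice alone and 0.76 ± 0.34, not called (adjusted p = 0.096), without their PT samples.

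Months 1 and 4 of the G2 mice could be compared without any PT sample, and 16 mice had both. Whether the site of bleeding differed between these months is not known. The M4 samples were also sequenced deeper, with a median of 2842438 miRNA reads against 1588176 over the M1 samples of both codes. The part of depth in the differences of low miRNA was not tested. In the fit of all sham samples 100 of 349 miRNA (28.7%) were called between M4 and M1 (47 or 13.5% higher, 53 or 15.2% lower), and in a fit of only the M1 and M4 samples of the G2 mice 79 of 276 (28.6%) were called (44 or 15.9% higher, 35 or 12.7% lower). Of the 100, 61 were also called in that within-mouse fit in the same direction, 31 had the same sign without being called, 1 had the opposite sign without being called and 7 were too low to be tested there. The values given for single miRNA in the next 3 paragraphs are those of the within-mouse fit unless stated otherwise.

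The Dlk1-Dio3 cluster, a large group of maternally expressed miRNA genes on chromosome 12, was lower at M4 than at M1. Of its 21 tested members 14 fell and none rose in the fit of all samples, with a median log2 fold of -1.09 against -0.03 over all miRNA, and 0 of the 21 had a positive value. In the within-mouse fit 11 of 14 tested members fell and none rose. miR-136-5p ranged from 4.51 to 6.8 log2 CPM at M1 (median 6.18) and from 4 to 5.98 at M4 (median 5.01) in the G2 mice, ranges that overlapped, and was lower at M4 in 15 of 16 mice. It fell by 0.98 ± 0.15 (adjusted p = 0.000259) and miR-434-3p by 0.94 ± 0.17, the latter also in 15 of 16 mice. Against PT the same list had moved up at D2 (12 of 21 called higher, none lower, where 18.1% of all miRNA were called higher). Of the 21, 5 were called higher at D2 without the PT samples of the G2 mice (6.1% of all miRNA). In the G4 mice alone 1 of 20 was called higher, where 2.99% of all miRNA were called in either direction. At M4 the list stood at 0 higher and 9 lower (28.7% of all miRNA lower), or 0 and 6 without those samples (8.72%).

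Most of the miR-181 family fell and the miR-200 family rose over the same interval. Of the 6 miR-181 arms tested within mice, 4 were called lower and none higher. The value of miR-181c-3p was positive and not called (0.47 ± 0.34, adjusted p = 0.342). All 4 members with the seed ACAUUCA were called lower: miR-181d-5p fell by 0.95 ± 0.15 (adjusted p = 0.000259), miR-181b-5p by 0.86 ± 0.17, miR-181a-5p by 0.95 ± 0.21 and miR-181c-5p by 0.77 ± 0.15. miR-181d-5p went from 6.56 to 7.97 log2 CPM at M1 (median 7.21) to 5.43 to 7.12 at M4 (median 6.18) in the G2 mice and was lower in 15 of 16. Of the 9 arms of the miR-200 family tested in the fit of all samples, 7 rose and none fell, and in the within-mouse fit 5 rose and none fell. miR-200a-3p rose by 0.78 ± 0.22 (adjusted p = 0.0132) and miR-429-3p by 0.78 ± 0.24, each higher in 13 of 16 mice, while miR-200b-3p (0.62 ± 0.24, adjusted p = 0.056) and miR-141-3p (0.36 ± 0.32, adjusted p = 0.456) were not called within mice.

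miR-224-5p, lodged in the GABA receptor gene Gabre, rose late. It was not called at D2, D5 or M1 in either code. In the G2 mice its level was 1.16 to 5.05 log2 CPM at PT (median 3.88), 3.41 to 4.78 at M1 (median 4.25), and then had medians of 4.96, 5.42 and 5.44 at M2, M3 and M4, with a range of 3.21 to 7.65 at M4. It was higher at M4 than at M1 in 14 of 16 mice, by 1.44 ± 0.27 (adjusted p = 0.00064). Against PT the M4 change was 2.04 ± 0.27 in the G2 mice alone and 1.6 ± 0.29 (adjusted p = 1.81e-05) without their PT samples. Members of the miR-34 family parted: miR-34b-3p fell by 1.32 ± 0.23 (adjusted p = 0.000361) and miR-34c-3p by 1.23 ± 0.22, while miR-34a-5p was not called, with a value of 0.42 ± 0.17 (adjusted p = 0.0604) and was higher in 10 of 16 mice. miR-214-3p fell by 1.32 ± 0.24. In the red cell list 4 of 15 tested members rose and 2 fell within mice. miR-25-3p rose by 0.7 ± 0.17 and miR-93-5p by 0.55 ± 0.17, while miR-451a fell by 0.8 ± 0.21 (adjusted p = 0.00756), being lower in 13 of 16 mice.

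**Figure D5:**
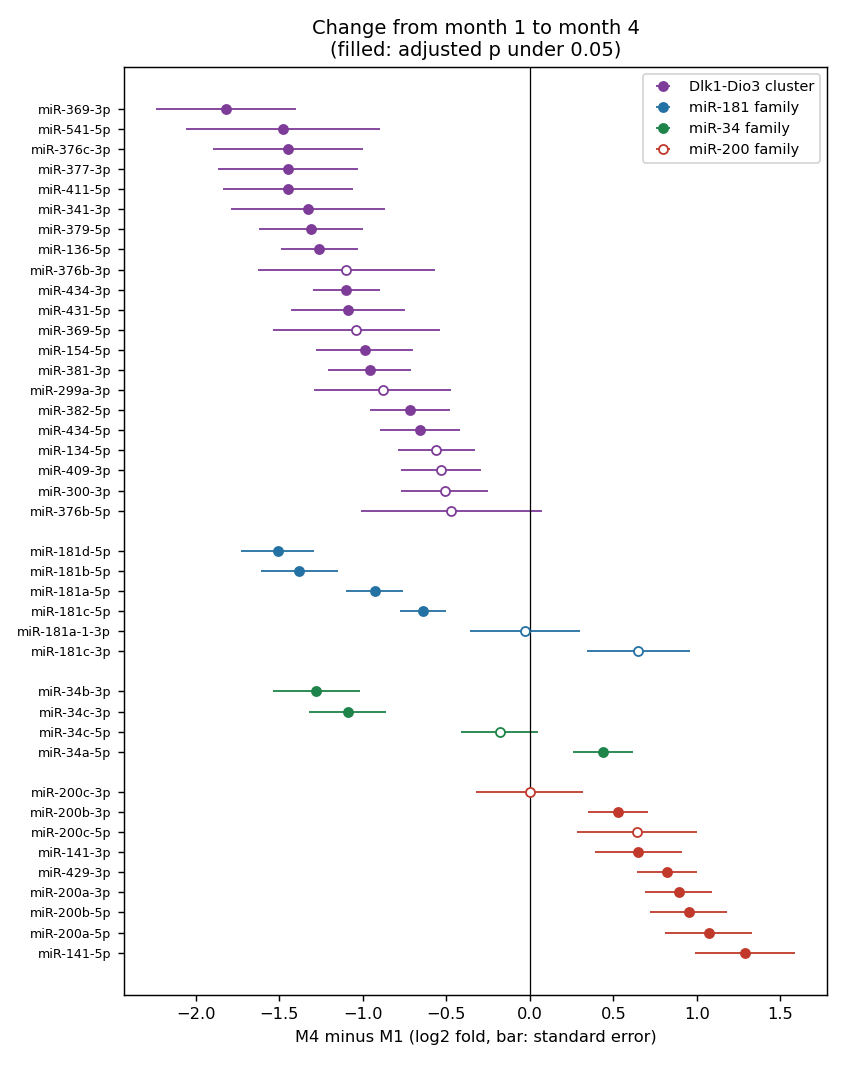
Log2 fold of M4 minus M1 in the fit of all sham C3H samples for the Dlk1-Dio3 cluster and the miR-181, miR-34 and miR-200 families; bars are standard errors and filled points have an adjusted p under 0.05. All 21 Dlk1-Dio3 points lie left of 0, and 7 of the 9 miR-200 points are filled and right of 0.

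The remaining lists are given by their counts at M4 against PT, first in the fit of all samples, where 27.5% of all miRNA were called higher and 28.7% lower, and then without the PT samples of the G2 mice, where 10.2% and 8.72% were. The counts of several lists lie near these shares. In the red cell list (18 tested) 5 rose and 8 fell, against 3 and 3. In the platelet and endothelial list (11) 3 rose and 6 fell, against 0 and 1 of 10, and in the lymphocyte and leukocyte list (12) 3 and 4, against 2 and 2. The clusters from miR-17 to miR-92a (19) had 8 and 8, against 2 and 2, and let-7 (16) had 4 and 7, against 1 and 0. The Sfmbt2 cluster (11), whose members lie in an intron of an imprinted gene active in placenta, had 0 and 6, against 0 and 2 of 10, with a median log2 fold of -0.74 in both fits. The miR-30 members (8) stood at 6 and 1, against 2 and 0, and the miR-29 members (5) at 4 and 1, against 0 and 0. Of the tissue lists, liver (11) and pancreas (7) had 2 and 0 each, muscle (6) 1 and 1, brain (9) 5 and 2, and gonad 1 and 1 of the 3 miRNA abundant enough to test. Without the PT samples of the G2 mice brain stood at 1 and 2 and the other 4 tissue lists had no call. miR-451a itself, which is made in red cells, was lower at M3 without those samples (-1.19 ± 0.3, adjusted p = 0.00274) and was not called there at M2 or M4.

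Females and males had the same number of mice, and the change from PT differed between them for 53 of 349 miRNA (15.2%) in a joint test over the 6 times. By the ranges of the paper the females were older at the start, so sex and starting age cannot be told apart here. The smallest adjusted p belonged to let-7d-3p and miR-186-5p (1.33e-05 each), followed by let-7f-5p (2.24e-05), let-7a-5p and miR-181c-5p (5.58e-05 each). let-7a-5p had log2 folds of -0.66, -0.47, -0.26, -0.1, 0.57 and -1.17 in females and of -1.46, -0.77, -1.04, 0.67, -0.38 and -0.21 in males from D2 to M4. The value was higher in females at D2, D5, M1 and M3 and higher in males at M2 and M4. Without the PT samples of the G2 mice the values were -0.61, -0.47, -0.26, -0.09, 0.58 and -1.15 in females and -0.8, -0.21, -0.49, 1.38, 0.34 and 0.54 in males, so that the order at D5 was the other way.

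Sham mice of the C57Bl/6 strain, sampled at the same times, allowed a comparison that shared no sample. They carry the codes G1 and G3, and their samples at M2, M3 and M4 came from the G1 mice alone. The PT samples of these C57 mice were not compared by code and were all kept in the fits of this paragraph. A fit restricted to the mice coded G4 and G3 is given in the section on processing. The change from PT differed between the strains for 209 of 381 miRNA (54.9%). At D5, 154 (40.4%) differed, and of the 91 called in sham C3H mice at that time (138 or 36.2% in sham C57 mice) 4 were called in the same direction and 49 in the opposite direction in sham C57 mice; at M2, 31 (8.14%) differed, and of 124 called in C3H mice and 106 (27.8%) in C57 mice 50 and 2 were called in the same and in the opposite direction. These overlaps rested on the PT samples of the G2 mice. Without them only 2 miRNA were called in sham C3H mice at D5, both in the same direction in sham C57 mice, and none was opposite. At M2 14 were called, 12 in the same direction and 0 in the opposite one. At D2, M1, M3 and M4 that fit called 28, 44, 45 and 59 miRNA in sham C3H mice. Of these, 20, 15, 28 and 30 were called in the same direction in sham C57 mice and 0, 2, 3 and 3 in the opposite one. Sham C57 mice had 106, 131, 118, 114, 171 and 141 calls of 375 miRNA from D2 to M4. The strain difference was then called for 81 of 375 miRNA at D5 and for 6 at M2. It was called for 19 at D2, 50 at M1 and at M3, and 56 at M4. miR-223-3p, a myeloid miRNA, had the smallest adjusted p of the strain difference (3.62e-23), with log2 folds of -1.02, -1.41, -1.24, -1.03, -0.89 and -1.55 from D2 to M4 in C3H mice and of 0.53, 1.52, 0.12, 0.29, 0.58 and 1.25 in C57 mice. With the PT samples of the G2 mice left out, the C3H values were -0.06, -0.36, -0.27, 0.26, 0.46 and -0.22 and the C57 values 0.61, 1.66, 0.17, 0.32, 0.68 and 1.34, with an adjusted p of 4.45e-16 for the difference. miR-34a-5p in sham C57 mice had 0.64, -0.03, 1.02, 1.14, 1.8 and 1, and miR-224-5p was not called there at any of the 6 times.

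Most of the miRNA called in sham C3H mice were called in the same direction in irradiated C3H mice, whose thorax had received a single dose after the PT bleed. The irradiated mice gave 258 samples over all times. The paper reports deaths from late radiation injury among them, so their later samples come only from the mice still alive. In a fit of both, 130, 91, 159, 126, 154 and 199 of 388 miRNA were called in the sham mice from D2 to M4, and 99, 80, 127, 106, 109 and 163 of them were called in the same direction in the irradiated mice, which is 70.8% to 87.9% of the sham calls. The irradiated mice had 169 (43.6%), 167 (43%), 177 (45.6%), 175 (45.1%), 169 (43.6%) and 198 (51%) calls, of which the shared ones are 47.9% to 82.3%. The PT samples of the G2 mice stood apart in both treatments. Without them the same counts were 20 of 27 at D2, 3 of 3 at D5, 34 of 48 at M1, 15 of 15 at M2, 44 of 54 at M3 and 41 of 69 at M4. In that fit the irradiated mice had 74, 53, 83, 88, 121 and 82 calls of 385 miRNA from D2 to M4. The shared calls are 5.66% to 50% of these. At D2 1 miRNA was called in opposite directions, and at the other times 0. The change from PT differed between irradiated and sham mice for 16 of 388 miRNA (4.12%) over all times, and for 9 (2.32%) at D2, 6 (1.55%) at D5 and at M1, 2 (0.515%) at M2 and at M4, and 5 (1.29%) at M3.

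The sham changes of 3 miRNA can be set beside those of the irradiated mice. miR-150-5p, a lymphocyte miRNA, was not called in sham mice at D2 (-0.26 ± 0.19, adjusted p = 0.299) or D5 (-0.3 ± 0.19, adjusted p = 0.214) and was called at M1 (-0.35 ± 0.15, adjusted p = 0.044), though not there without the PT samples of the G2 mice (-0.28 ± 0.19, adjusted p = 0.351). In irradiated mice it had log2 folds of -1.83, -1.61 and -0.93 at D2, D5 and M1, and the difference was called at each of these times with and without those samples. miR-34a-5p rose by 1.47 ± 0.18 at D2 and 0.85 ± 0.18 at D5 in sham mice and by 2.16 and 2.83 in irradiated mice, and the difference was called at D5 (1.93, adjusted p = 1.2e-12) and not at D2 (0.65, adjusted p = 0.138). Without the PT samples of the G2 mice the values at D2 and D5 were 1 and 0.39 in sham mice and 1.71 and 2.37 in irradiated mice, and the difference was again called at D5 (1.98, adjusted p = 5.93e-12) and not at D2 (0.71, adjusted p = 0.133). miR-224-5p, by contrast, was called in irradiated mice at M2, M3 and M4 too, with log2 folds of 1.02, 1.7 and 1.49, and its difference from the sham change was not called at any time, the values lying between -0.37 and 0.11, or between -0.26 and 0.21 without the PT samples of the G2 mice.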

How the data were processed

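Plasma small RNA libraries (QIAseq miRNA kit, NextSeq) were sequenced by the authors, who left out hemolysed plasma and libraries of few reads, and mapped to mouse miRNA on the build mm10 with a BaseSpace small RNA application. The deposited values are raw counts of reads per mature miRNA and sample, with no normalization, and whether molecular identifiers were collapsed is not given in the sources used here. Of the values of all listed miRNA, 75.1% were 0. Samples were grouped by strain, irradiation, time point, mouse number and code as the labels give them, and no 2 samples were identical.

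Counts were normalized by TMM (factors 0.506 to 1.57) and filtered with filterByExpr by group, which kept 349 miRNA with 99.97% of the reads. edgeR 4.0.16 in R 4.3.3 fitted a quasi-likelihood model of mouse and time over all 144 samples, with Benjamini-Hochberg adjustment over the 349 miRNA and a threshold of 0.05. Adjusted p-values in the text are from this test. Levels are log2 CPM with a prior count of 2. Since the model is additive, months 2 to 4 borrow the changes to D2, D5 and M1 of the G4 mice, and the G2 mice alone give the purely within-mouse value. Same-mouse samples at different times correlated by 0.0498 on average in their deviations from the group means (288 pairs) and samples of different mice by -0.0156 (864 pairs). Deviations cancel out within each group, so the second value largely follows from the first and is no independent comparison. The pairing rests on the animal numbers in the labels. Differences by sex, code, strain and irradiation were joint tests of the interaction with time. Alternatives were no mouse block, DESeq2 size factors, no filter, limma-voom (limma 3.58.1), DESeq2 1.42.0, quantile-normalized log2 RPM (reads scaled to the library total, pseudocount 1) with limma, and subsets of mice. Leaving out the PT samples of the G2 mice, restricting months 1 and 4 to the G2 mice, and restricting the strain comparison to the mice coded G4 and G3 were chosen after seeing the data. The steps were tested on simulated counts.

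The samples and the lists of miRNA were chosen with earlier results of these data known. The miRNA named were, at each time, the 5 rises and 5 falls of smallest adjusted p and, over a mean of 10 CPM, of largest fold, the 10 of smallest p over any time, the 5 of smallest p in each joint test, and called list members, 167 in all. The miRNA called in both codes or in opposite directions, and those named for month 4 against month 1, were chosen after their values were seen. Sequences came from RefSeq, which matched 297 of the 349 miRNA.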

Additional observations from a re-analysis of the deposited data

Results flagged for a closer look

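Effects of time that differed between groups of mice by a joint test of the interaction are listed here; none was weighed further. The change from PT differed between females and males for 53 of 349 miRNA (let-7d-3p and miR-186-5p first), and between the mice coded G2 and G4 for 119 of 332 over D2, D5 and M1. It differed between sham C3H and sham C57 mice for 209 of 381 miRNA (miR-223-3p first) and between irradiated and sham C3H mice for 16 of 388 (miR-150-5p first). What the codes stand for, and so what besides the code differed between those mice, was not tested.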

How the results depend on the processing

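Of 119 recomputed counts of called miRNA, 102 stayed within 1.5 times the value reported, 15 were smaller and 2 larger. Leaving out the PT samples of the G2 mice gave 31 calls at D2, 3 at D5, 55 at M1, 20 at M2, 55 at M3 and 65 at M4, and the G4 mice alone gave 10 at D2, 8 at D5 and 43 at M1; these fits hold fewer PT samples or mice. Females alone gave 64 at D2, 33 at D5 and 69 at M2, and males alone 93 at M3, again from fewer mice. The difference between the sexes was called for 87 miRNA without the G2 PT samples and for 85 by DESeq2, and the strain difference for 107 of 358 with G4 and G3 mice only; the cause was not tested. Without the mouse as a replicate block, the counts were 138 at D2, 98 at D5, 155 at M1, 94 at M2, 123 at M3 and 190 at M4, each within 1.5 times the count with the block, while the sex difference fell to 14 calls. Leaving out single mice was not run, since no group had 5 or fewer.

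Single changes from PT that turned sign did so mostly without the G2 PT samples. There miR-155-5p was 0.26 at D5 and 0.62 at M2, miR-181b-5p 0.14 at D2 and 0.26 at D5, miR-181d-5p 0.15 at D2, 0.28 at D5 and 0.63 at M1, miR-17-5p 0.07 at D2 and 0.02 at M2, and miR-140-5p 0.13 at M2, 0.2 at M3 and 0.08 at M4. In the same fit let-7b-5p was 0.26 at D2, 0.37 at D5, 0.26 at M2, 0.57 at M3 and 0.68 at M4, and let-7c-5p 0.42 at D2, 0.31 at M2 and 0.66 at M3. In the G4 mice alone miR-155-5p was 0.24 at D5, miR-181b-5p 0.09 at D2, miR-181d-5p 0.24 at D5 and 0.75 at M1, miR-141-3p -0.04 at M1, miR-532-5p -0.16 at D2, miR-17-5p 0.05 at M1, let-7b-5p 0.37 at D5 and let-7c-5p 0.05 at D2. Without the replicate block miR-34a-5p was -0.04 for M4 minus M1 and miR-181c-5p 0.03 at M2. let-7c-5p was 0.09 at D2 after quantile normalization, and let-7b-5p 0.01 at M4 in females. Of 2067 recomputed values of single miRNA, these 33 turned sign and 328 kept their sign but were no longer called. The cause was not tested. Depth limits low miRNA such as miR-211-5p and miR-369-3p, which some samples held without a read.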

Other observations

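Further miRNA of the G2 mice differed between month 1 and month 4 in the fit of those samples alone. Of these, miR-126a-3p, miR-155-5p and miR-29a-3p belong to lists counted in the report. miR-532-5p, from an X-linked cluster in Clcn5, rose by 0.95 ± 0.16 on the log2 scale (adjusted p = 0.000321) and was higher in 15 of 16 mice. miR-126a-3p, the endothelial miRNA that had fallen from PT to M1 in both codes, rose by 0.64 ± 0.13 (higher in 14 of 16 mice), and miR-155-5p rose by 0.85 ± 0.16 (higher in 14 of 16). In the fit of all samples these last 2 were not called, with log2 folds of 0.3 ± 0.14 and 0.29 ± 0.18. miR-29a-3p fell by 0.56 ± 0.13 within mice and was -0.25 ± 0.13, not called, in the fit of all samples. miR-31-5p, an epithelial miRNA, was called against PT in both codes at D5 and had values of 0.26 ± 0.27 within mice and 0.54 ± 0.18 in the fit of all samples between months 1 and 4, called only in the latter.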
